A study of Drosophila melanogaster with 40 samples.

Results

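The Antennapedia complex of Drosophila melanogaster was described here through 7 of its genes, lab, pb, zen2, bcd, Dfd, Scr and Antp, out of 17796 annotated genes on the chromosome arms. A called peak was assigned to a gene when it reached the gene body or 5 kb to either side of it, and 420 of the 80548 peaks in 14 peak lists did so. The lists come from chromatin immunoprecipitation followed by sequencing (ChIP-seq) of whole embryos aged 0.5 to 1.5 h, in 7 groups of 2 biological replicates. In wild-type (w1118) embryos the precipitated proteins were dPCIF1, HIRA, GAF, Zelda (ZLD) and RNA Pol II-Ser5P, the form of RNA polymerase II whose C-terminal domain is phosphorylated on serine 5. GAF and Zelda were also precipitated from M-Z+ dPCIF1 mutant embryos, which lack the maternal supply of dPCIF1 and carry a zygotic copy. The study made null alleles by CRISPR/Cas9 and used a deficiency, and the allele behind these samples is not given in the sources used here. The loss of dPCIF1 could not be checked in the mutant samples, since dPCIF1 was precipitated from wild-type embryos only among the lists analysed here. The study reports a western blot in which mutant ovaries had no dPCIF1 protein.

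The complex lies on the right arm of chromosome 3. Its Hox genes lab, pb, Dfd, Scr and Antp encode homeodomain transcription factors that give segments of the head and anterior thorax their identity, and their order on the chromosome follows the order of the body regions they pattern. The mRNA of bcd is laid down by the mother at the anterior pole, where its protein organises the head and thorax, and zen2 is a homeobox gene of the complex without a homeotic role. Zelda and GAF are pioneer factors, proteins that bind DNA in closed chromatin, and act in zygotic genome activation, when the embryo begins its own transcription. Zelda binds motifs that include CAGGTA and GAF binds GA repeats such as GAGAG. HIRA is a chaperone that places the histone variant H3.3 into nucleosomes, dPCIF1 is the fly homologue of a cap-specific RNA methyltransferase, and RNA Pol II-Ser5P marks polymerase near the start of transcription.

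The genes have 12 annotated transcription start sites in the Ensembl copy of the FlyBase annotation (dm6, Release 6 of the genome). On the minus strand, Antp has start site 1 at 6999228, start site 2 at 6958370 and start site 3 at 6932840 of chr3R. The minus-strand gene Scr has start sites 1 and 2 at 6849981 and 6848505, and lab has start sites 1 and 2 at 6678590 and 6663454. The plus-strand gene Dfd starts at 6791836. On the minus strand bcd starts at 6759466, pb at 6742063, and zen2 at 6744136 and 6744074. Start site 2 of Antp is shared with a second annotated protein-coding gene, CG46458.

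To show the letters under promoters with contrasting sets of peaks, 4 are printed, from 250 bases before to 50 bases from the start site, 5′ to 3′ on the strand of the gene. Capitals mark GAGAG and CAGGTA on either strand (CTCTC and TACCTG for the reverse). Overlapping GAGAG matches were counted separately, and a GAGAG and a CAGGTA match can share no more than an end base. The Dfd promoter (chr3R:6791586-6791885, plus strand) held 6 GAGAG matches, and the second lab promoter (chr3R:6663405-6663704, minus strand) held 5. The promoter of Antp start site 3 (chr3R:6932791-6933090, minus strand), where 13 of the 14 lists had a peak, held 1, and that of zen2 start site 1 (chr3R:6744087-6744386, minus strand), with peaks of Zelda only, held 1 CAGGTA and no GAGAG.
Dfd: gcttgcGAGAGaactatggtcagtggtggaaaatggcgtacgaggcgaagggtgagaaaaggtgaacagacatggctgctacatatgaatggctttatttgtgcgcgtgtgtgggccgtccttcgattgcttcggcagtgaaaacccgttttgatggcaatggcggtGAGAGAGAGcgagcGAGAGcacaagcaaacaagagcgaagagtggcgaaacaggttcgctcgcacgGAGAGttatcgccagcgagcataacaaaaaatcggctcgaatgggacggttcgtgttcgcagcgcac
lab start site 2: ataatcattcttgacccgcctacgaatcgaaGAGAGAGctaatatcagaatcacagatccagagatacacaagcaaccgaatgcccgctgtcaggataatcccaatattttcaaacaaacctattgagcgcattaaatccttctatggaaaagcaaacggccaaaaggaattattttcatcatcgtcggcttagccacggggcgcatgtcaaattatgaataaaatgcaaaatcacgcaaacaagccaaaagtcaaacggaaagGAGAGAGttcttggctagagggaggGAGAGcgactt
Antp start site 3: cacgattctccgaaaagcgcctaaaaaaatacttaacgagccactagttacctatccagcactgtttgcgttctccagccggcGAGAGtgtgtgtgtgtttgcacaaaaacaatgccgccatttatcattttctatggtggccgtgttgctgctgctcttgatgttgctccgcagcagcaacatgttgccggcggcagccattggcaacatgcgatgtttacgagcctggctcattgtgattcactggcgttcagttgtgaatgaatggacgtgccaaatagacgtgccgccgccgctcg
zen2 start site 1: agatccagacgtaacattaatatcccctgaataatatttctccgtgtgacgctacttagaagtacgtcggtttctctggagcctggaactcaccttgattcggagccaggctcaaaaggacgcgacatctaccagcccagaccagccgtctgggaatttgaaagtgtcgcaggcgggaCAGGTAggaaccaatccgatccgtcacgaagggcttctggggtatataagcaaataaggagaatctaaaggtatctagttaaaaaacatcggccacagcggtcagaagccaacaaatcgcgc

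Of the 12 promoters, those of both zen2 start sites, which overlap each other, held CAGGTA, against 6.44% of 23249 promoters of the same length on the arms. GAGAG stood in the other 10, with 1 match at lab start site 1, pb, bcd and Antp start sites 1 and 3, 3 at Scr start site 2 and Antp start site 2, and 5 at Scr start site 1, against 32.4% of all promoters with at least 1. A match is a description of the letters and not a measured binding site. Over the joint window of the 7 genes, 257.557 kb in 6 intervals, GAGAG occurred 18.6 times per 10 kb against 15.7 on the arms, and CAGGTA 2.14 times against 2.47.

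Zelda covered far more of the complex than of the genome, and dPCIF1 covered less. Because the lists hold positions without heights, the share of bases under a called peak was used as the measure. In wild-type embryos the Zelda lists covered 13.9% and 12.5% of the joint window and 2.34% and 1.96% of the arms. The ratio of window to arms was 6.14 ± 0.322 for Zelda (SD, n = 2 lists), 2.29 ± 0.124 for HIRA and 1.76 ± 0.0403 for GAF. It was 0.752 ± 0.0744 for RNA Pol II-Ser5P and 0.553 ± 0.135 for dPCIF1. In each of these groups both lists lay on the same side of the arms. The HIRA excess rested on the flanks, since HIRA covered 1.80% of gene bodies alone, against 1.80% of the arms (means of 2 lists). Zelda, at 9.48% of gene bodies, and GAF, at 7.02%, stayed above the arms.

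The HIRA lists covered 4.85% and 3.44% of the joint window (2.04% and 1.56% of the arms) and the GAF lists 9.20% and 9.61% (5.31% and 5.37%). RNA Pol II-Ser5P covered 7.29% and 8.51% (10.4% and 10.6%), and dPCIF1 0.934% and 1.06% (2.04% and 1.64%). Peaks of Zelda within the joint window had median widths of 598 and 647.5 bp, against 489 and 520 bp on the arms, and numbered 19.4 and 15.53 per 100 kb against 3.52 and 2.78, so both their width and their number were higher there. GAF peaks were narrower within it, with medians of 515 and 566 bp against 678 and 630 bp. The other Hox cluster, the bithorax complex with Ubx, abd-A and Abd-B, was covered to 13.4% by Zelda, as the Antennapedia complex was (13.2%), but to 16.2% by GAF against 9.41%, to 2.04% by HIRA against 4.14%, to 6.11% by RNA Pol II-Ser5P against 7.90% and to 2.73% by dPCIF1 against 0.997% (means of 2 lists). The lists of the clusters overlapped for Zelda and for none of the other 4 proteins. These values include the 5 kb flanks, where much of the HIRA coverage of the Antennapedia complex lay. The embryos were whole, so a place bound in few nuclei and a place bound weakly in all of them cannot be told apart. The lists give no read counts, so depth is unknown, and its part in any difference was not tested.

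**Figure D1:**
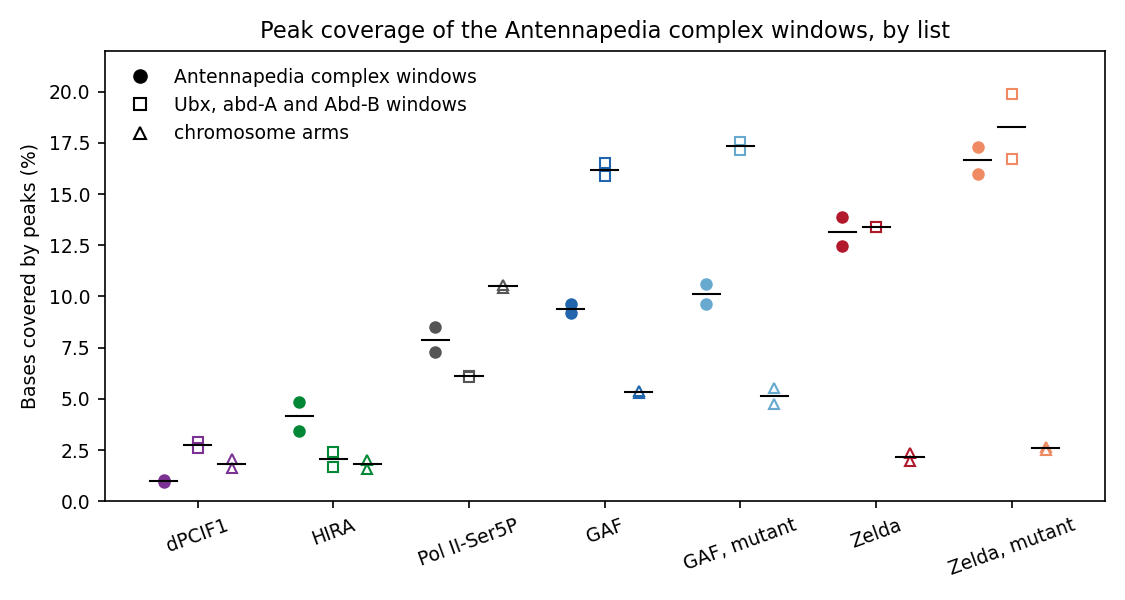
Bases covered by peaks (%, vertical axis) in each of the 7 groups, with 1 point per list and a bar at the mean. Filled circles are the joint window of the 7 Antennapedia complex genes, squares the windows of Ubx, abd-A and Abd-B, and triangles the chromosome arms. Wild-type Zelda stands at 13.9% and 12.5% in the complex against 2.34% and 1.96% on the arms, whereas both dPCIF1 points of the complex lie below the arms.

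The genes differed from each other, and each factor had its own order. Zelda covered 39.3% and 43.6% of the window of bcd, 18.8% and 18.3% of that of zen2, 17.8% and 13.5% of that of Scr, and 14.99% and 11.6% of that of Antp. Below these came lab (8.89% and 11.1%), Dfd (6.63% and 8.28%) and pb (6.23% and 7.54%). Scr and Antp overlapped, as did Dfd and pb, and the other neighbours in this order did not. GAF had another order, led by Dfd (14.9% and 17.0%), Antp (12.7% and 13.2%) and Scr (11.7% and 11.4%), which did not overlap. Then followed zen2 (5.48% and 5.39%) and bcd (3.35% and 5.85%), which did, lab (3.32% and 2.57%) and last pb (1.36% and 1.34%). By window, the Hox genes Dfd, Antp and Scr were thus the most GAF-covered members, but Dfd owed this to its flanks. Within gene bodies GAF covered 309 and 291 bases at Dfd (10593 bp). It covered 10565 and 10409 bases at Antp (102976 bp) and 2309 and 2015 at Scr (26862 bp).

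For RNA Pol II-Ser5P the window of bcd was the most covered of the 7 (32.8% and 25.5%), followed by lab (16.3% and 20.1%) and Scr (10.1% and 10.04%). The other windows held less, with Dfd at 6.08% and 6.11%, Antp at 3.55% and 6.44%, zen2 at 4.57% and 3.84%, and pb at 1.98% and 1.68%. HIRA had no peak in the windows of pb and zen2 in either list, and in that of lab it covered 2.42% in replicate 1 and none in replicate 2. HIRA coverage was 16.7% and 6.50% for bcd, 12.5% and 7.62% for Scr, 3.90% and 4.27% for Antp and 2.55% and 1.70% for Dfd. Peaks of dPCIF1 were absent from the windows of pb, zen2 and Dfd in both lists. They covered 3.71% and 5.41% of the window of bcd, 2.07% and 3.14% of that of lab, 1.09% and 0.648% of that of Antp and 0.293% and 1.11% of that of Scr.

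**Figure D2:**
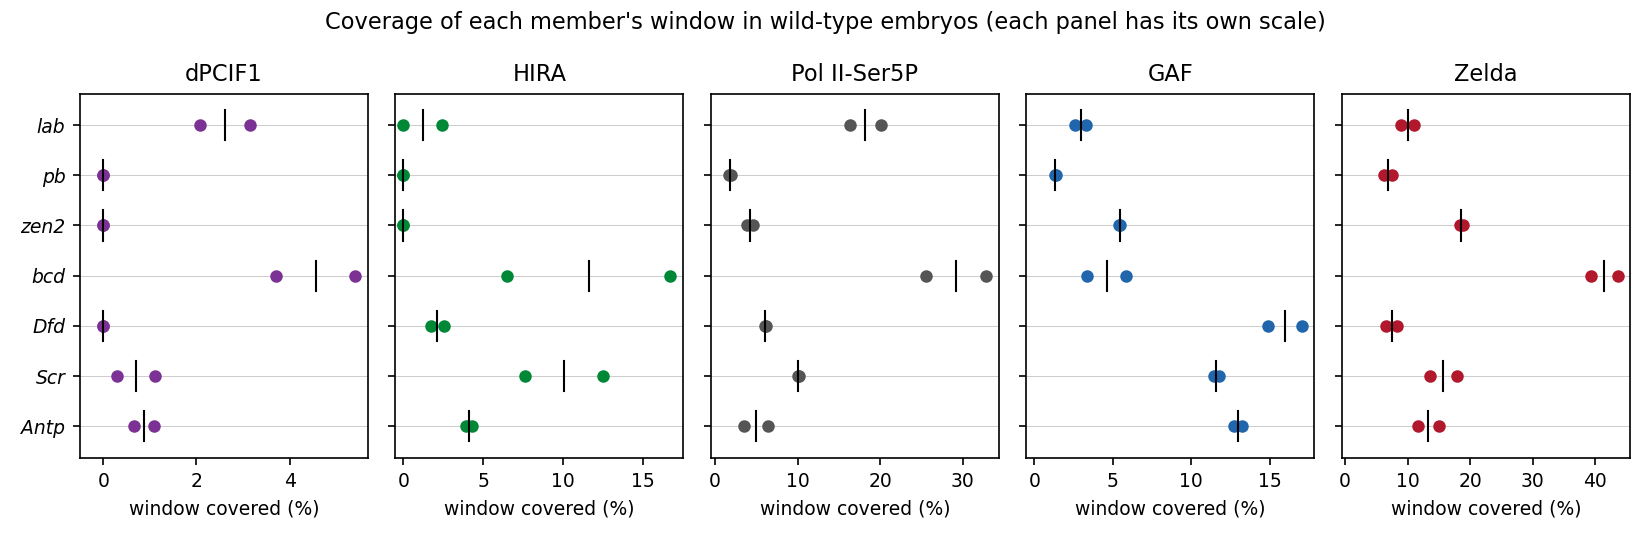
Share of each gene's window covered by peaks in wild-type embryos (%, horizontal axis, own scale in each panel), with 1 point per list and a bar at the mean. By the mean, the window of bcd leads for dPCIF1, HIRA, RNA Pol II-Ser5P and Zelda, whereas Dfd leads for GAF and pb is last there.

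Much of the coverage near bcd belongs to neighbouring start sites. A consensus region joins replicate peaks that overlap by at least 20% of both lengths. All 3 consensus Zelda regions of the bcd window lay nearer to the start site of another protein-coding gene than to that of bcd, and so did the dPCIF1 region, the GAF region and 1 of the 2 HIRA regions, the other being nearest to a noncoding gene. The widest Zelda consensus region of the complex, chr3R:6760598-6763694 (3097 bp), was among them, centred 447 bp from such a start site. Merged over all lists, the peaks there formed a region with peaks of all 14 lists (chr3R:6760566-6763904), not all of which overlapped each other. In replicate 1, for example, the GAF peak lay at 6762125-6762581 and the dPCIF1 peak at 6763187-6763691. In the window of lab, 2 of the 3 RNA Pol II-Ser5P consensus regions lay nearest to other protein-coding genes. In the window of Dfd, 3 of the 4 GAF consensus regions lay nearest to noncoding genes. In the window of Scr, 3 of 4 RNA Pol II-Ser5P and 2 of 4 HIRA regions lay nearest to noncoding genes, among which are copies of tRNA:Lys and 7SL RNA genes. Such near-identical copies leave few reads that map to a single place, so peaks over them are uncertain. The widest HIRA consensus region, chr3R:6819055-6821232 (2178 bp), spanned some of these copies.

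At the start sites themselves, Zelda and RNA Pol II-Ser5P were found at most of the 7 genes, and dPCIF1 at few. A promoter was counted when a peak lay within 1 kb of any start site of the gene in both replicates. Zelda peaks met this at 6 of the 7 genes, all but bcd, against 9.29% of all annotated genes. RNA Pol II-Ser5P met it at 6 genes, all but zen2 (49.2% of all genes), and GAF at 5, lab, pb, Dfd, Scr and Antp (21.7%). HIRA met it at 3, Dfd, Scr and Antp (13.9%), and dPCIF1 at 2, lab and Antp (17.1%). Counted over whole windows, RNA Pol II-Ser5P (66.2%), GAF (40.8%) and Zelda (22.2%) had peaks in both replicates at all 7 genes, as did mutant GAF (38.3%) and mutant Zelda (22.6%), whereas dPCIF1 (34%) and HIRA (28.5%) had them at 4. HIRA had a promoter peak at 5 genes in replicate 1, that is without replicate 2, the additional ones being lab and bcd.

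The start sites of Antp carried different sets of proteins. At start site 3, dPCIF1 peaks of 545 and 366 bp, HIRA peaks of 470 and 342 bp and RNA Pol II-Ser5P peaks of 751 and 994 bp all covered the first base. So did GAF peaks of 315 and 339 bp, while of the Zelda peaks, 338 bp wide in both lists, that of replicate 1 covered it and that of replicate 2 ended at -130 bp (negative values are upstream). Start site 1 lay in HIRA peaks of 611 and 569 bp, in GAF peaks of 3374 and 3120 bp that reached to -2712 and -2721 bp, and in Zelda peaks of 1081 and 772 bp. There dPCIF1 (368 bp, replicate 1) and RNA Pol II-Ser5P (636 bp, replicate 2) were called in 1 replicate each. Start site 2 had GAF peaks of 441 and 477 bp upstream of it and no other protein in wild-type embryos. All 5 proteins thus met at start site 3 in both wild-type replicates, and GAF alone was near start site 2.

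The start sites of lab were similarly unequal. Start site 1 was covered by dPCIF1 peaks of 563 and 854 bp, which together formed the widest dPCIF1 consensus region of the complex (chr3R:6678349-6679240, 892 bp). RNA Pol II-Ser5P peaks of 665 and 739 bp and Zelda peaks of 555 and 617 bp covered the same base, and HIRA (323 bp, replicate 1) and GAF (277 bp, replicate 2) were called in 1 list each. Start site 2, whose promoter holds 5 GAGAG matches, was covered by GAF peaks of 436 and 422 bp and Zelda peaks of 634 and 958 bp, with no dPCIF1, HIRA or RNA Pol II-Ser5P peak. RNA Pol II-Ser5P and dPCIF1 were therefore seen at the upstream start of lab only, and Zelda at both.

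At Dfd, RNA Pol II-Ser5P peaks of 617 and 632 bp ended just upstream, at -16 and -12 bp, and HIRA peaks of 525 and 351 bp ended at 14 and -13 bp. GAF covered the Dfd start with peaks of 933 bp in replicate 1 and 2135 bp in replicate 2, and Zelda with peaks of 705 and 729 bp. Scr start site 2 lay within GAF peaks of 1100 and 834 bp, with HIRA (403 and 347 bp) and Zelda (395 and 405 bp) peaks ending upstream of it, from -99 to -153 bp. RNA Pol II-Ser5P was called there with a peak of 332 bp that ended at -143 bp in replicate 1 and a peak of 584 bp over the start in replicate 2. Scr start site 1 was covered by GAF peaks of 749 and 578 bp and Zelda peaks of 468 and 355 bp. The start of pb lay in RNA Pol II-Ser5P peaks of 503 and 423 bp, GAF peaks of 603 and 593 bp and Zelda peaks of 600 and 430 bp, without dPCIF1 or HIRA. At zen2, Zelda peaks of 1174 and 1584 bp lay upstream, of which that of replicate 2 reached over the start sites. The peaks of RNA Pol II-Ser5P and GAF in the zen2 window were those of the pb promoter, which both windows contain. Upstream of bcd, RNA Pol II-Ser5P peaks of 543 and 333 bp ended at -171 and -164 bp, and no peak of any list covered the bcd start site.

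**Figure D3:**
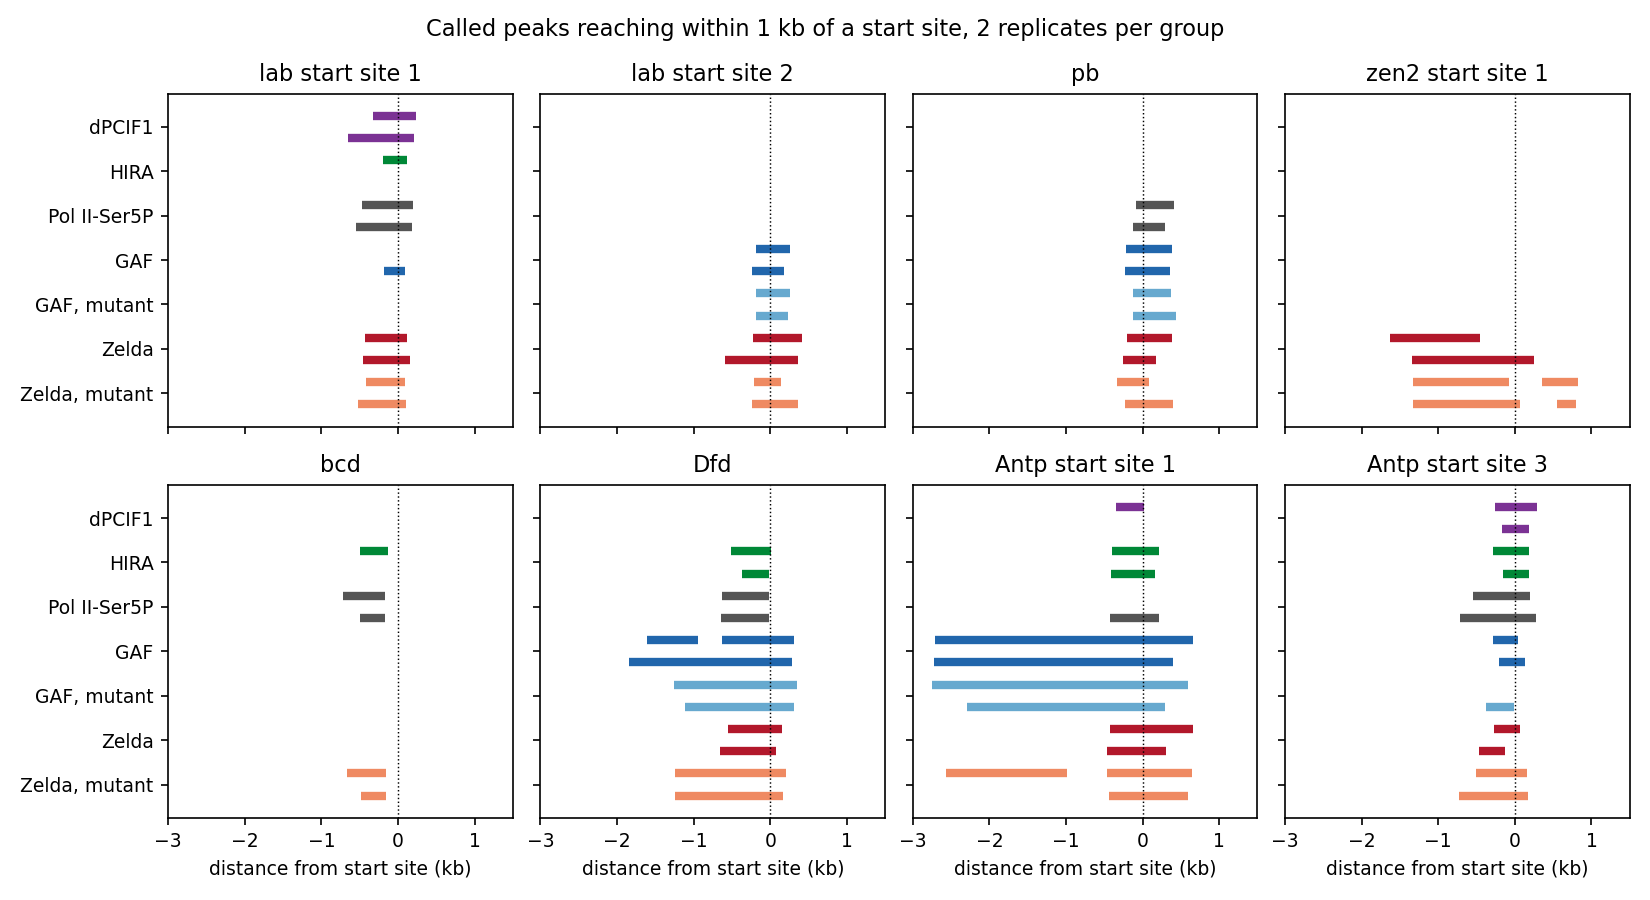
Called peaks that reach within 1 kb of 8 of the start sites, drawn by distance from the start site (kb, horizontal axis, negative upstream in the direction of transcription), with 1 line per list and the 2 replicates of a group below each other. Antp start site 3 has peaks in 13 lists and zen2 start site 1 in the 4 Zelda lists only, and the Zelda peaks at Dfd measure 705 and 729 bp in wild-type but 1443 and 1410 bp in mutant embryos.

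GAF and Zelda also lay within introns, above all in the long introns of Antp, but covered introns less than promoters or flanks. Promoter bases of the 7 genes were covered to 29.0% ± 0.282 by GAF and 26.2% ± 1.32 by Zelda (SD, n = 2), and intron bases to 6.10% ± 0.00214 and 8.71% ± 1.51. For HIRA the values were 10.01% ± 3.59 and 1.51% ± 0.0253, for RNA Pol II-Ser5P 18.0% ± 3.05 and 1.82% ± 0.311, and for dPCIF1 6.26% ± 0.840 and 0.207% ± 0.0210. Flanking bases outside promoters were covered to 14.6% by GAF, 23.1% by Zelda and 11.1% by HIRA. For RNA Pol II-Ser5P this mean was 24.2% and for dPCIF1 1.63%. Introns outside promoters made up 164.937 kb of the 257.557 kb joint window. By midpoint, 15 of 29 GAF and 16 of 36 Zelda consensus regions were intronic, against 4 of 15 for HIRA, 4 of 19 for RNA Pol II-Ser5P and 1 of 5 for dPCIF1. Exons outside promoters held no dPCIF1 or HIRA peak. Antp had 18 consensus regions each of GAF and Zelda, 8 of HIRA, 7 of RNA Pol II-Ser5P and 2 of dPCIF1.

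An intronic region of Antp between start sites 1 and 2 (chr3R:6965075-6967841, 2767 bp, dm6) had peaks in all 14 lists. Its dPCIF1 peaks were 317 and 366 bp wide and its HIRA peaks 308 and 448 bp. RNA Pol II-Ser5P, GAF and Zelda each had a pair of peaks there in both wild-type lists, with GAF peaks of 756 and 1553 bp in replicate 1 and 919 and 1521 bp in replicate 2. In both mutant GAF lists the pair was called as 1 peak, of 2752 and 2694 bp. The midpoint of the region lay 8088 bp upstream of the nearest annotated start site.

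**Figure D4:**
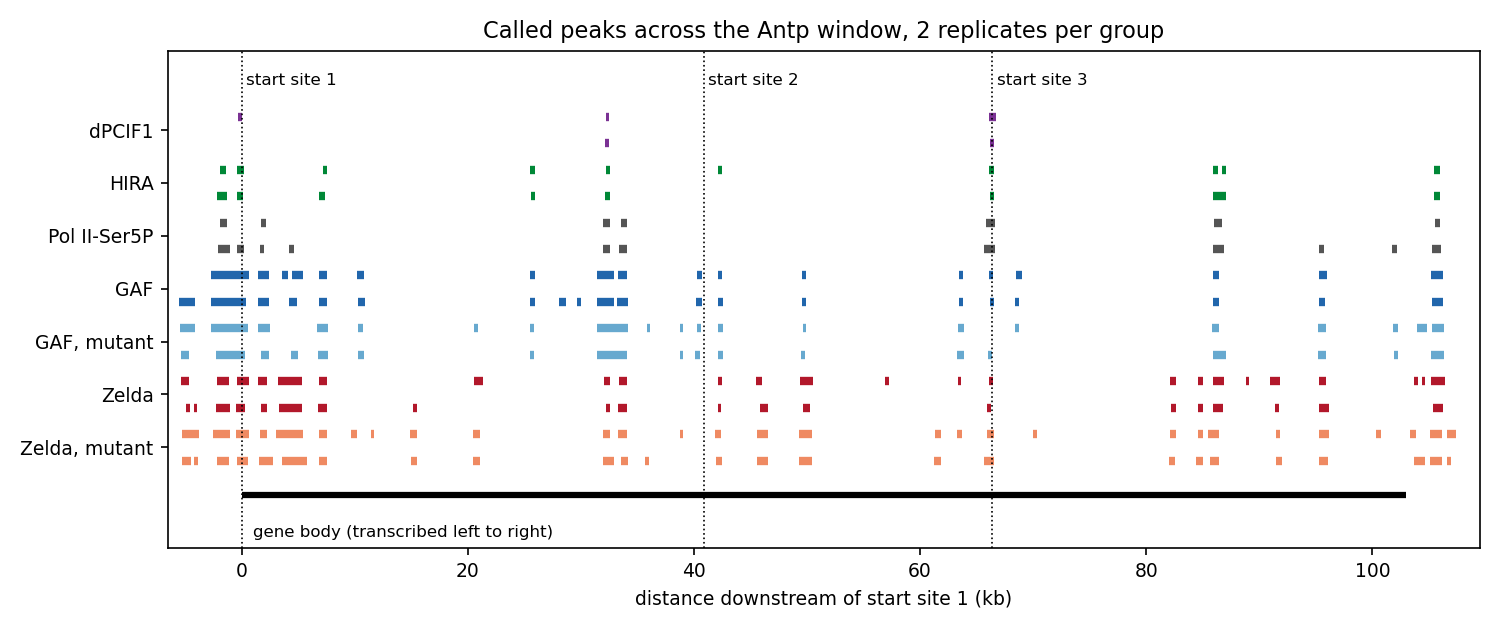
Called peaks across the Antp window, by distance from start site 1 in the direction of transcription (kb, horizontal axis), with 1 line per list, dotted lines at the 3 start sites and a black bar for the gene body. dPCIF1 peaks of both replicates stand at start site 3 and at the intronic region with peaks in all 14 lists, and that of replicate 1 also at start site 1, whereas GAF and Zelda peaks run along the whole gene.

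Between Dfd and Scr, GAF and RNA Pol II-Ser5P were called over kilobases. The widest GAF consensus region (12984 bp, chr3R:6806694-6819677) and the widest RNA Pol II-Ser5P consensus region (7327 bp, chr3R:6806794-6814120) lay there, partly outside the gene windows. They covered mir-10, a microRNA of the complex (chr3R:6809506-6809582, minus strand), within the annotated lncRNA:CR42651 (chr3R:6808796-6816379). The peak over mir-10 was 12984 and 6942 bp wide in the wild-type GAF lists, 7895 and 6668 bp in the mutant GAF lists and 7327 and 2843 bp in the RNA Pol II-Ser5P lists. It was 970 bp wide in replicate 1 of dPCIF1 and absent from replicate 2, and no HIRA or Zelda peak covered mir-10. The single GAF peak over mir-10 thus differed in width between the wild-type replicates more than between the mutant ones. Merged over the GAF lists of both genotypes, the peaks spanned chr3R:6805771-6819677 (13907 bp). They covered 13396 and 12357 bases of it in wild type and 13464 and 12622 in mutant embryos. Merged over all lists, the peaks here formed a single region with peaks of all 14 lists (chr3R:6805771-6821232, 15462 bp), much of it outside the gene windows. Within it, in the window of Scr, dPCIF1 had a consensus region (chr3R:6817969-6818528) from peaks of 259 and 483 bp, which consensus regions of RNA Pol II-Ser5P, GAF and Zelda overlapped. HIRA peaked on it in replicate 1 only.

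GAF and Zelda regions coincided more often in the complex than over all regions of the genome. Peaks were also denser there, at 12.8 (GAF) and 17.5 (Zelda) per 100 kb against 4.55 and 3.15 on the arms. The part of this density in the coincidence was not tested. Of 29 GAF consensus regions, 21 overlapped a Zelda consensus region by 20% of both lengths (20.5% of all GAF regions), and 21 of 36 Zelda regions overlapped GAF (39.2%). Of 19 RNA Pol II-Ser5P regions, 14 overlapped Zelda (15.3%), 11 overlapped HIRA (16.7%) and 11 overlapped GAF (26%). HIRA regions, 15 in all, overlapped Zelda 11 times (49.8%), RNA Pol II-Ser5P 10 times (58.9%), GAF 10 times (45.8%) and dPCIF1 3 times (58.6%). All 5 dPCIF1 regions overlapped RNA Pol II-Ser5P (66%) and Zelda (36.4%), 3 overlapped HIRA (57.9%) and 2 overlapped GAF (50.5%). Seen from the other side, dPCIF1 met 5 of 19 RNA Pol II-Ser5P regions (19%), 2 of 29 GAF regions (25.4%) and 5 of 36 Zelda regions (34.9%). HIRA met 10 of 29 GAF regions (23.1%) and 11 of 36 Zelda regions (46.8%), and RNA Pol II-Ser5P met 11 of 29 GAF regions (45.2%) and 14 of 36 Zelda regions (51.4%). Most HIRA regions of the complex thus had no dPCIF1 region at this overlap. These counts are descriptions, as neighbouring regions are not independent. At an overlap of 1 bp, 23 of 29 GAF regions met Zelda (24.3% of all) and 23 of 36 Zelda regions met GAF (52.1%). At a reciprocal overlap of 50%, GAF regions overlapping Zelda fell to 10 and HIRA regions overlapping GAF to 3, without shares over all regions beside them.

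The letters under these regions were counted in windows of 100 bp to either side of their midpoints. GAGAG stood in 18 of 29 wild-type GAF regions of the complex, against 51.8% of all GAF regions, and in 13 of 27 mutant ones, against 52.7%. CAGGTA stood in 3 of 36 wild-type Zelda regions, against 14.96% of all, and in 3 of 41 mutant ones, against 13.1%. A midpoint is not a summit, which the lists do not hold.

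In M-Z+ dPCIF1 mutant embryos the Zelda lists covered more of the complex and the GAF lists slightly more. Zelda covered 17.3% and 16.0% of the joint window in mutant embryos, against 13.9% and 12.5% in wild type, and the lowest mutant list stood 2.10 percentage points above the highest wild-type list. On the log2 scale of covered bases the difference (mutant minus wild type) was 0.34, but Zelda lists covered more of all arms too, with a difference of 0.28, which left 0.062 relative to the arms. Without the window of Antp, the longest gene, the difference was 0.21. GAF covered 10.6% and 9.63% in mutant against 9.20% and 9.61% in wild type. The genotypes were separated by 0.0167 percentage points, and the log2 difference was 0.10 in the complex against -0.06 on the arms. It was 0.034 without mutant replicate 1 and 0.173 without mutant replicate 2. With 2 lists against 2, an exact two-sided permutation test cannot give a p below 0.333.

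By gene, Zelda covered more bases in both mutant lists than in either wild-type list at 5 of the 7 genes, zen2, bcd, Dfd, Scr and Antp, and fewer at lab. Over all annotated genes 9.94% were higher and 5.79% lower in this sense, and among genes with a Zelda peak in any of the 4 lists 24.8% and 14.4%. Antp had 16938 and 13102 covered bases in wild type and 22050 and 20013 in mutant embryos (mutant to wild type 1.40). Dfd had 1365 and 1705 against 2328 and 2337 (1.52), and zen2 had 2069 and 2014 against 2529 and 2927 (1.34). For bcd the values were 5352 and 5943 against 6392 and 6695 (1.16), and for Scr 6574 and 4991 against 7443 and 6611 (1.22), close to the 1.21 of the arms. At pb, 2758 and 3337 against 4266 and 3306, the genotypes overlapped. At lab Zelda fell from 2415 and 3013 to 1760 and 1508 bases (0.602), against the direction of the arms. Each non-overlap has an exact permutation p of 0.333, the smallest this design allows.

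GAF was higher in both mutant lists at Scr, with 5976 and 4934 bases against 4329 and 4216, and lower at pb and zen2, which share the 1 peak concerned, with 508 and 561 bases against 603 and 593. Over all genes 9.83% were higher and 14.8% lower, and 19.5% and 29.4% of those with a GAF peak. At Antp, 16372 and 14538 against 14353 and 14946 bases, the genotypes overlapped, as they did at Dfd (3234 and 2604 against 3061 and 3510), lab (762 and 858 against 903 and 699) and bcd (462 and 1309 against 457 and 797). With gene bodies only, GAF was higher in both mutant lists at 3 genes and lower at 0. The shares over all genes are for windows, so this count has no share beside it to be judged by.

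**Figure D5:**
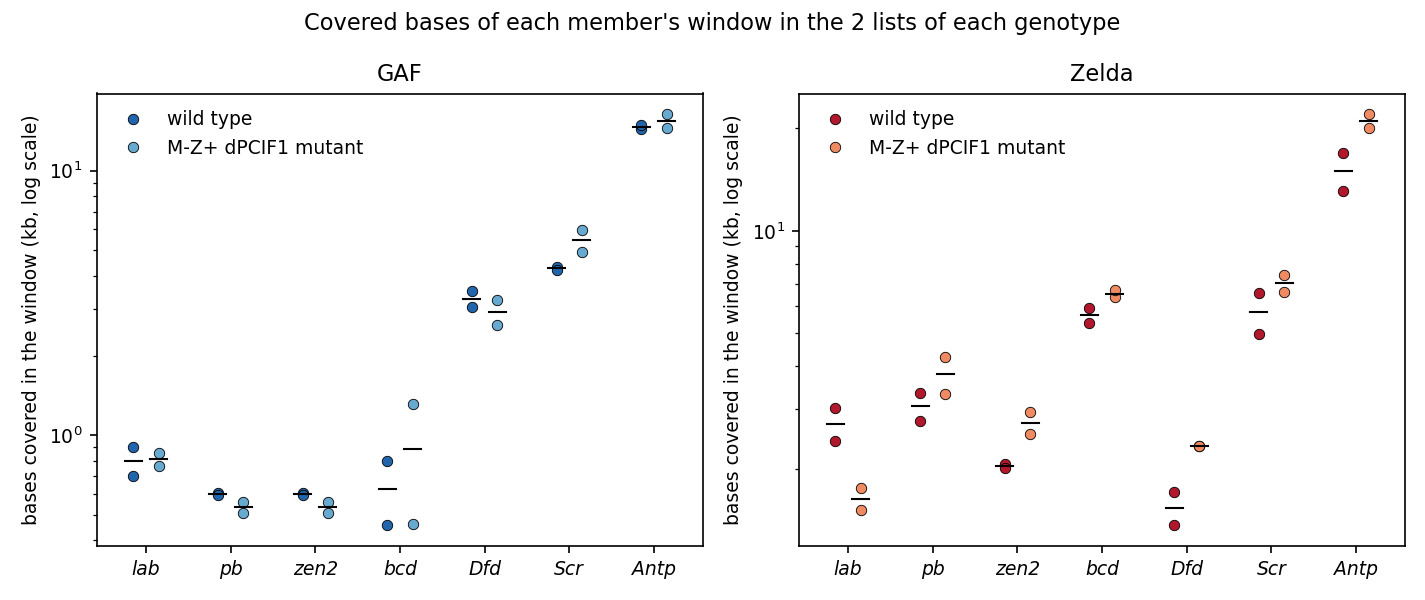
Bases covered by GAF (left) and Zelda (right) peaks in each gene's window (kb, vertical log axis), with 1 point per list, dark for wild type and light for M-Z+ dPCIF1 mutant, and a bar at the mean. Both mutant Zelda points lie above both wild-type points at zen2, bcd, Dfd, Scr and Antp and below them at lab.

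Promoters, introns and flanks were then compared. Zelda covered 25.3% and 27.1% of promoter bases in wild type and 37.7% and 39.3% in mutant embryos. Its coverage of all arms was 1.21 times as high in the mutant. No values over all promoters stand beside these or the peak widths below, so a change particular to these genes is not shown. Intron bases were covered to 9.78% and 7.65% against 12.4% and 10.1%, and flanking bases outside promoters to 23.1% ± 0.232 against 27.3% ± 0.3901 (SD, n = 2). GAF covered 29.2% and 28.8% of promoter bases in wild type and 29.5% and 30.4% in mutant embryos. At Dfd the Zelda peaks were 705 and 729 bp wide in wild type and 1443 and 1410 bp in mutant embryos. At Scr start site 2 they were 395 and 405 bp against 1250 and 1400 bp, beside an 897 bp peak further downstream in wild-type replicate 1, and at Antp start site 3, 338 and 338 bp against 664 and 894 bp. At lab start site 2 they were 634 and 958 bp against 348 and 602 bp, at lab start site 1, 555 and 617 against 506 and 630 bp, and at pb, 600 and 430 against 421 and 625 bp, with overlap at these last 2. They also overlapped between genotypes at Scr start site 1 (468 and 355 against 695 and 456 bp), at Antp start site 1 (1081 and 772 against 1115 and 1032 bp) and upstream of zen2 (1174 and 1584 against 1265 and 1405 bp). All 7 genes had a Zelda promoter peak in both mutant lists (10% of all genes), with bcd added to the wild-type set, and GAF had one at the same 5 genes as in wild type (19.9%). At Antp start site 3 GAF had no peak in mutant replicate 1 and a 368 bp peak ending at -5 bp in replicate 2.

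Regions merged over the 4 lists of a factor were called kept with a peak in all 4, gained with a peak in both mutant lists and no wild-type list, and lost in the reverse case. Of 66 Zelda regions 31 were kept (29% of all merged Zelda regions), 5 gained (7.45%) and 1 lost (3.67%), so that gains were about as frequent as over all regions. Without mutant replicate 2 the gained regions numbered 14 and without wild-type replicate 1 they numbered 10. The lost regions numbered 2 and 6 without wild-type replicates 1 and 2, and 3 without either mutant replicate. Of the 31 kept Zelda regions 12 were wider in both mutant lists (38.7%, against 45.3% of all kept) and 1 was narrower (10.5% of all kept). Widening was thus not more frequent in the complex than over all kept regions. Of 41 GAF regions 21 were kept (46.1%), 3 gained (4.64%) and 1 lost (7.71%), and of those kept 8 were wider (25.5%) and 3 narrower (25.8%). Without mutant replicate 2 the gained GAF regions numbered 7. The lost GAF regions numbered 5 and 2 without wild-type replicates 1 and 2, and 2 and 4 without mutant replicates 1 and 2. A list left out makes gains and losses easier to call, and the counts without 1 list have no share over all regions beside them. With peaks of at least 500 bp no GAF region was gained or lost.

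The gained Zelda regions lay in different parts of the complex. The first was in an exon of zen2 (chr3R:6743308-6743775), with mutant peaks of 468 and 249 bp. Another lay 408 bp upstream of bcd by its midpoint (chr3R:6759620-6760129), with mutant peaks of 509 and 331 bp, where RNA Pol II-Ser5P had a consensus region in wild type. The others were downstream of Dfd (chr3R:6805856-6806228), where GAF was bound in wild type, in the 3′ flank of Antp (chr3R:6891809-6892597), and in an Antp intron upstream of start site 3 (chr3R:6937382-6937964). The lost Zelda region lay in an intron of lab (chr3R:6667138-6667787), with wild-type peaks of 546 and 625 bp. Gained GAF regions lay in an intron of Scr (chr3R:6846980-6847562), with mutant peaks of 583 and 309 bp, in an exon of Antp (chr3R:6896980-6897390), with 411 and 317 bp, and in an Antp intron upstream of start site 2 (chr3R:6960161-6960477), with 311 and 303 bp. The lost GAF region lay downstream of Dfd (chr3R:6804705-6805137), with wild-type peaks of 317 and 327 bp. In the same midpoint windows, GAGAG stood in 1 of these 4 changed GAF regions, against 51.8% of all wild-type GAF regions. CAGGTA stood in 0 of the 6 changed Zelda regions, against 14.96% of all wild-type Zelda regions, a share at which 6 regions can show little. Over their whole lengths, the gained GAF regions held 0 (Scr intron), 1 (Antp exon) and 5 (Antp intron) GAGAG matches, and the lost GAF region held 2.

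The centres of 3 of these regions (201 bases, plus strand, capitals as above) show how they differ in letters. The gained GAF region in the Antp intron (chr3R:6960219-6960419), shown because it alone of the 4 changed GAF regions held GAGAG in its centre, had 5 matches there, whereas the other 3 had 0. The centres of the gained Zelda region upstream of bcd (chr3R:6759774-6759974) and of the lost Zelda region of lab (chr3R:6667362-6667562) held neither motif.
gained GAF, Antp intron: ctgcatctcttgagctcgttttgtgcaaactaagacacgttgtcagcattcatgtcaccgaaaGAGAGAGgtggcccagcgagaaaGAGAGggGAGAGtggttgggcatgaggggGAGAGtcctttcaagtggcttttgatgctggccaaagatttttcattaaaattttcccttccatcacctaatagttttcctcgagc
gained Zelda, upstream of bcd: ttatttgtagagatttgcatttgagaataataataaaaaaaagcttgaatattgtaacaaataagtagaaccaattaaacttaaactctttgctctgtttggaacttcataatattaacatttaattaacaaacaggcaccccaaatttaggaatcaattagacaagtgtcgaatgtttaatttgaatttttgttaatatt
lost Zelda, lab intron: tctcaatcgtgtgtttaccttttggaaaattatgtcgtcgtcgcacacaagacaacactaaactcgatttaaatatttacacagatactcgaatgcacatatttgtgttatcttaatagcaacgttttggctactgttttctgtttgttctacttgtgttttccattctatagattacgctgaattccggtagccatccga

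The share of bases common to the lists of both genotypes, out of the bases in either list, set these differences against the replicates. For GAF in the joint window the replicates shared 0.697 in wild type and 0.674 in the mutant, and the 4 pairs of unlike genotype shared 0.620 to 0.655. For Zelda the replicates shared 0.570 and 0.671, and the pairs of unlike genotype 0.536 to 0.578. On the arms the GAF replicates shared 0.745 and 0.739 and the unlike pairs 0.674 to 0.676, and the Zelda replicates shared 0.480 and 0.635 and the unlike pairs 0.461 to 0.474. GAF lists of different genotypes thus shared less than replicates did, in the complex as on the arms. Zelda lists of different genotypes overlapped the range of the replicates in the complex and lay below it on the arms.

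Other genes that work with the complex were counted by the same promoter rule. Of 14 genes for Hox cofactors and for Polycomb and Trithorax group proteins, which keep Hox genes silent or active, 12 had a promoter peak of RNA Pol II-Ser5P in both replicates (49.2% of all genes), 8 of dPCIF1 (17.1%), 7 of HIRA (13.9%), 7 of GAF (21.7%) and 5 of Zelda (9.29%). The cofactor genes hth and tsh had all 5, as did the Polycomb group genes ph-p and Psc and the GAF gene Trl. In mutant embryos 6 of the 14 had GAF (19.9%) and 6 had Zelda (10%). The same shares apply to the lists that follow. Of Ubx, abd-A and Abd-B all 3 had promoter peaks of dPCIF1, RNA Pol II-Ser5P, GAF and Zelda, and Ubx and Abd-B of HIRA. The 7 Ccp84A genes, which encode cuticle proteins and lie between the homeobox genes, had no promoter peak in both replicates of any group. Within 1 kb of the annotated 5′ end of mir-10, a feature of 77 bp, RNA Pol II-Ser5P, GAF and Zelda had peaks in both replicates. No group had so at mir-993, the other microRNA. Whether these annotated ends are starts of transcription was not tested.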

How the data were processed

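ChIP-seq peak lists of 14 samples were analysed, and the other 26 of the 40 samples of the series were not analysed here. As the study's methods and processing notes give it, the authors used about 50 mg of embryos per replicate, trimmed reads with Trimmomatic 0.39, mapped them to dm6 with Bowtie2 2.2.5, kept reads of mapping quality 30 with SAMtools 1.18 and ran MACS2 2.2.7.1 on every replicate separately, with 0.01 as the q-value limit. Whether input libraries entered peak calling is not given in the sources used here. The deposited lists hold chromosome, start and end only, with no score, height or q-value, so no fitted test across genes was made and covered bases were used. Starts were read as counted from 0 and are printed as counted from 1.

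The members and lists were chosen with earlier results of these data known. All 7 genes are named, with every gained or lost region, the widest consensus region of each wild-type factor and regions with a peak in all 14 lists. A promoter is 1 kb to either side of a start site. Gene models came from Ensembl release 115 and sequences from the RefSeq copy of the Release 6 assembly, with transposable elements left out. Overlaps were computed in Python 3.11.15, checked against bedtools 2.31.1 and tested on simulated data. Genotypes were compared by non-overlap of the lists and by an exact two-sided permutation test (scipy 1.17.1). Alternatives were other window and promoter widths, peaks of at least 500 bp, other overlap rules, peaks of either replicate, the replicate number as a block, and each list left out. Further alternatives, chosen after seeing the data, were values relative to all covered bases of a list and the joint window without bcd or Antp.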

Additional observations from a re-analysis of the deposited data

How the results depend on the processing

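Over 170 alternative values, 104 stayed within the spread or within 1.5 times the count, 66 moved and 0 reversed. Some of the 104 could not have moved. Coverage without 1 replicate is that of the other list, which lies within the spread of the pair, and the replicate block leaves a difference unchanged. Counts and covered shares have no sign to reverse. Coverage depended most on the window. With gene bodies only, the joint window was covered to 0.525% (dPCIF1), 1.80% (HIRA), 2.72% (RNA Pol II-Ser5P), 7.02% (GAF), 9.48% (Zelda), 7.74% (mutant GAF) and 12.3% (mutant Zelda). With 1 kb to either side it was 0.806%, 2.61%, 4.07%, 7.81%, 10.9%, 8.50% and 14.3% in the same order, and with peaks of at least 500 bp 0.622%, 2.61%, 6.99%, 7.09%, 10.5%, 7.91% and 14.6%. The Zelda log2 difference was 0.47 with peaks of at least 500 bp, 0.062 relative to all covered bases and 0.21 without Antp, and leaving out 1 list gave 0.26 to 0.42, and 0.03 to 0.17 for GAF.

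With peaks of at least 500 bp, promoter counts fell to 1 (dPCIF1), 1 (HIRA) and 3 (RNA Pol II-Ser5P), and a peak in either replicate gave 5 for HIRA, whose range without 1 replicate was 3 to 5. Kept, gained and lost GAF regions were then 11, 0 and 0, and kept Zelda regions 18. A peak in either list gave 8 gained and 6 lost GAF regions and 15 gained and 7 lost Zelda regions. In gene bodies only, 0 GAF regions were lost and 2 Zelda regions gained. GAF was there higher at 3 genes and lower at 0, without a share over all genes for gene bodies. Leaving out 1 list gave 4 to 7 gained and 2 to 5 lost GAF regions, and 6 to 14 gained and 2 to 6 lost Zelda regions. Fewer lists make gains and losses easier to call, and these counts and those of either list have no share over all regions beside them.

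At a reciprocal overlap of 50%, HIRA regions overlapped RNA Pol II-Ser5P 6 times, GAF 3 times and Zelda 5 times, and GAF and Zelda regions overlapped each other 10 times. With peaks of at least 500 bp these counts were 4, 2, 4, and 8 GAF and 9 Zelda regions, and dPCIF1 and HIRA overlapped once in either direction (1 region), against 6 regions when either replicate was used.

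The replicate numbers do not mark a shared batch in the labels, and the deviations of same-numbered lists correlated at -0.04 for GAF and 0.03 for Zelda over gene windows. With the replicate number as a block the log2 differences were the main values, 0.10 for GAF and 0.34 for Zelda. In this balanced design such a block cannot change a difference of means, so these values say nothing about a batch. Apart from the window and width limits themselves, the cause of the shifts under the other settings was not tested. Peak lists without heights cannot show a change in binding strength at a place called in both genotypes.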
